A study of Homo sapiens with 16 samples.

Results

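The genes described here encode the subunits of the proteasome and the proteins that assemble and regulate it. They were chosen by name alone, as all gene symbols that consist of PSMA, PSMB, PSMC, PSMD, PSME, PSMF or PSMG and a number, with at least 10 counts in every library. Among the 26475 entries of the deposited counts, 48 matched by name, and 45 of these had 10 counts or more throughout. The 45 genes were 16 of the core (PSMA and PSMB), 20 of the cap (PSMC and PSMD), the 4 activators (PSME), the inhibitor-type regulator *PSMF1* and 4 core chaperones (PSMG). The 3 genes that did not reach the minimum were *PSMB11*, a subunit of the thymus with 0 counts in all libraries, *PSMA8*, a subunit of the testis with 12 counts in a single RUNXi library and none elsewhere, and *PSMB9*, an immunoproteasome subunit with 0 to 82 counts.

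The proteasome is the main protease of the cytoplasm and nucleus, and it degrades proteins that carry chains of ubiquitin. Its core is a barrel of stacked rings, in which the outer rings are made of alpha subunits that gate the entrance and the inner rings of beta subunits, some of which cut peptide bonds. The cap binds ubiquitin chains, removes them, and unfolds and feeds in the substrate with a ring of ATPases, and the subunit genes are known to be transcribed together, with NFE2L1 (NRF1) as a transcription factor that raises them when proteasome activity falls short.

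RNA-seq was carried out on 16 libraries of MCF10A, an immortalized, non-tumorigenic line of human breast epithelial cells, in 4 groups of 4. All groups were grown in medium with insulin, EGF, hydrocortisone, cholera toxin and horse serum. The control group received DMSO, 2 changes of medium and no collagen. The collagen group received DMSO for 48 h, with collagen I (0.05 mg/mL) during the second 24 h. The DDR1i group received the same collagen with DDR1-IN-1, an inhibitor of the collagen receptor kinase DDR1, at 2 μM for 48 h. The RUNXi group received the same collagen with AI-10-104 at 5 μM for 48 h, a compound that keeps RUNX transcription factors from their partner CBFβ. All libraries come from a single cell line, and nothing in the labels says whether replicates were separate cultures, so that p-values measure the spread between these samples, which may be technical.

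Total counts per library ranged from 12184619 to 44332378, and the 45 genes took 0.710 to 0.929% of them. Values below are TMM-scaled CPM (normalized CPM). The 8 markers of basal epithelium (keratins, TP63 and others) summed to 12500 to 22700 CPM per library, against at most 32.9 CPM for any of the lists of luminal, fibroblast, leukocyte and endothelial markers. Within the 3 luminal genes 1 was at 0 in every library, as were 2 of the 5 leukocyte genes and 1 of the 3 endothelial genes. Collagen replicate 3, which the authors had removed as an outlier, was left out of the tests and is given beside the results. Replicates were all distinct, with a chi-square per degree of freedom of 18.7 or more in every pair. In bulk RNA, fewer cells of a type and less RNA per cell cannot be told apart.

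The 45 genes differed widely in level. Per kilobase of transcript, in the mean of the 4 control libraries, *PSMA7* had the highest level of the alpha subunits with 362 CPM per kb, and *PSMA4* the lowest with 38.5. The 7 constitutive beta subunits lay between 53.2 CPM per kb (*PSMB2*) and 359 (*PSMB4*), with a median of 213, the highest of any class. Medians were 144 CPM per kb for the alpha subunits, 99.3 for the non-ATPase cap subunits, 81.6 for the ATPases and 78.6 for the activators. Chaperones were lower, with a median of 40.4 CPM per kb for the 4 PSMG genes, which guide the assembly of the core, and 24.5 for *PSMD5*, *PSMD9* and *PSMD10*, which assist the base of the cap and are no subunits of the finished particle. These levels rest on the annotated length of 1 transcript per gene. The annotated transcripts of *PSMA4*, *PSMA5* and *PSMC1* were 4378, 3815 and 4390 bases long, against a median of 1518 bases over the 45 genes.

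The first comparison asked whether collagen alone altered the proteasome genes. No member passed the test, and neither did any other gene (0.0% of the 13092 genes tested) in the quasi-likelihood test of edgeR, adjusted by Benjamini-Hochberg. At an unadjusted p under 0.05, 16 of the 45 members were higher with collagen and none lower, against 6.42% of all tested genes that were higher, and DESeq2 called 6 members (*PSMA1*, *PSMA2*, *PSMA4*, *PSMA5*, *PSMA7* and *PSME2*), against 5.81% of all genes to which it gave an adjusted p. All 3 collagen libraries lay above all 4 control libraries for 15 members, against 6.65% of all tested genes. The median log2 fold change was 0.27 over the members and 0.01 over all tested genes. In order of role, medians were 0.43 for the alpha subunits, 0.31 for the constitutive beta subunits, 0.25 for the ATPases, 0.23 for the non-ATPase cap subunits, 0.28 for the PSMG chaperones and -0.21 for the base chaperones.

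**Figure D1:**
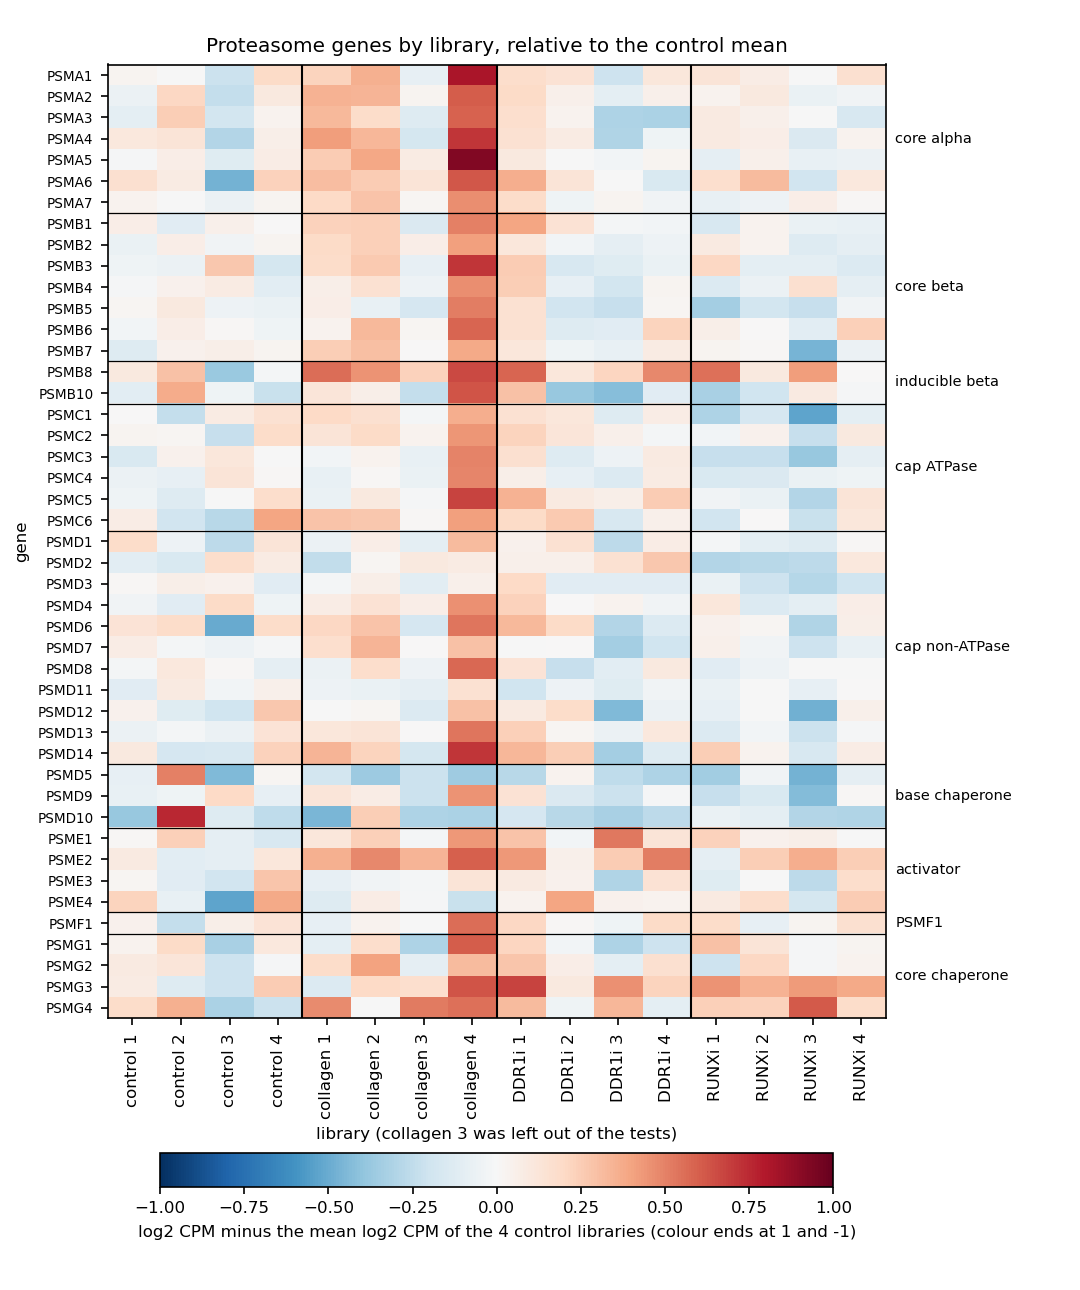
Rows are the 45 proteasome genes by class and columns the 16 libraries; colour is log2 CPM minus the mean log2 CPM of the 4 control libraries. The core rows are red in collagen replicates 1, 2 and most of all 4, and also in DDR1i replicate 1. Collagen replicate 3 resembles the control columns and the other inhibitor columns.

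The 3 collagen libraries did not contribute equally, as the map of members by library shows. The mean over the 16 core genes, in log2 units over the control mean, was 0.23 in collagen replicate 1, 0.26 in replicate 2 and 0.60 in replicate 4. In collagen replicate 3 it was -0.03, among the control libraries, which ranged from -0.10 to 0.10. DDR1i replicate 1 had 0.23, as did collagen replicate 1, and the other inhibitor libraries lay between -0.12 and 0.02. Collagen replicate 4 was the highest of the 4 collagen libraries for 38 of 45 members (84.4%), against 32.0% of all tested genes, and collagen replicate 3 was below the other 3 for 34 members (75.6%), against 25.9% of all tested genes. For the 16 core genes both counts were 16. Without collagen replicate 4 the median of the members against the control was 0.16, and with collagen replicate 3 in its place it was 0.09.

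Transcript length moved with these values. The mean log2 deviation of genes with transcripts of up to 1972 bases minus that of genes with 5156 bases or more was 0.68 in collagen replicate 4, 0.20 in replicate 2 and 0.14 in replicate 1. It was 0.22 in DDR1i replicate 1 and between -0.25 and -0.04 in the other 12 libraries, collagen replicate 3 included. Of the 45 members 35 had a transcript shorter than the median of the tested genes (3257.5 bases). With the length trend of each library removed, the median of the members was 0.01 for collagen against control, and those of the core and cap were 0.05 and 0.00.

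**Figure D2:**
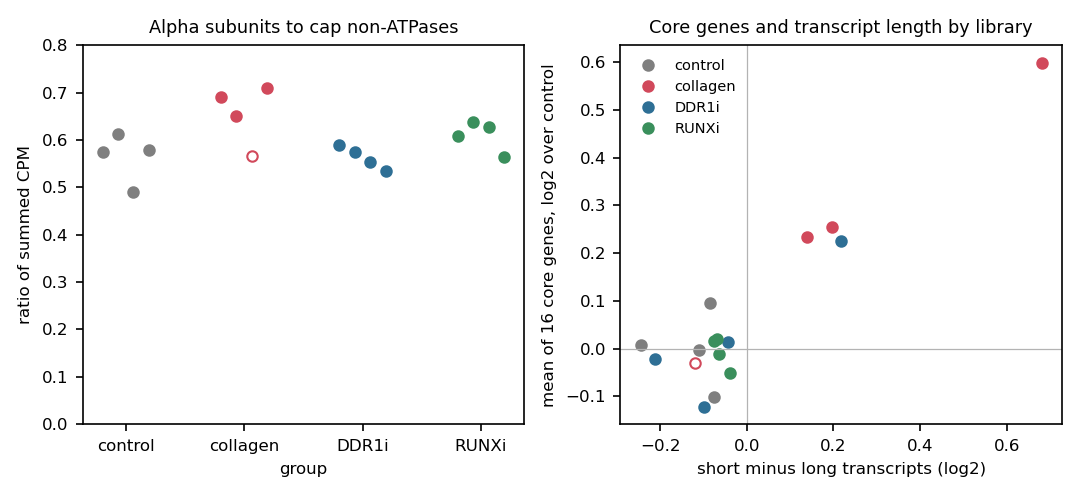
Left, ratio of the summed CPM of 7 alpha subunits to that of 11 non-ATPase cap subunits in each library by group; right, mean log2 level of 16 core genes over the control mean (vertical) against the log2 deviation of short minus long transcripts (horizontal). Each point is a library and the open point is collagen replicate 3; the tested collagen libraries have the 3 highest ratios, and collagen replicate 4 stands apart on both axes of the right panel.

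With DDR1i, 2 members fell below collagen alone and none rose, *PSMA4* and *PSMA5*, both of the outer ring of the core. Every adjusted p given here is from this edgeR test. Among all 13548 genes tested 0.775% were lower. At an unadjusted p under 0.05 there were 17 members lower, 12 of them in the core, and 0 higher, against 8.14% of all tested genes lower. DESeq2 called 9 members and 10.2% of all genes to which it gave an adjusted p, in either direction. The 4 DDR1i libraries lay below all 3 collagen libraries for 11 members, against 6.72% of all tested genes. With RUNXi 4 members fell and none rose, the alpha subunits *PSMA2*, *PSMA4* and *PSMA5* and the ATPase *PSMC1*, against 1.46% of all tested genes lower. At an unadjusted p under 0.05 there were 26 members lower and 0 higher, against 10.2% of all tested genes lower, and DESeq2 called 15 members and 11.1% of all genes. All 4 RUNXi libraries were below all 3 collagen libraries for 18 members, against 8.91% of all tested genes. Both inhibitors were compared with the same 3 collagen libraries, so that a high or low value in these enters both results. With the length trend of each library removed, *PSMA4* and *PSMA5* were called with DDR1i, and *PSMA4*, *PSMA5* and *PSMC1* with RUNXi. These are the 3 called genes whose annotated transcripts were longer than the median of the tested genes, while *PSMA2*, with 1434 bases, was not called. The step lowered their log2 fold changes further. With DDR1i *PSMA4* went to -0.655 and *PSMA5* to -0.628. With RUNXi *PSMA4* went to -0.593, *PSMA5* to -0.66 and *PSMC1* to -0.62. It uses the length of 1 transcript per gene, so that these calls depend on that length. The medians of the members were then -0.16 with DDR1i and -0.17 with RUNXi, against -0.20 and -0.30 without this step. Without collagen replicate 4 the medians were -0.109 and -0.19, and no member was called with either inhibitor, nor was any with collagen replicate 3 included.

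The promoters of the 4 genes that passed are given as 150 bases before the annotated start, to show what they share in sequence. They are from RefSeq on GRCh38.p14, at chr1:109426449-109426598 (minus strand), chr15:78540255-78540404 (plus strand, the first of 3 annotated starts), chr7:42932175-42932324 (minus strand) and chr14:90256403-90256552 (plus strand). Capitals mark the CCAAT box.
PSMA5: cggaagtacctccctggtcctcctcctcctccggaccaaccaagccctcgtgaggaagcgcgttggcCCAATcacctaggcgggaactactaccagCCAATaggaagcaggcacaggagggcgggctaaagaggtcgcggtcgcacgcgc
PSMA4: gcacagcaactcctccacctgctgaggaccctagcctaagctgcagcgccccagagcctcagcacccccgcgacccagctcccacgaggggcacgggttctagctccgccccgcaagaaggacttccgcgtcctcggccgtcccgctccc
PSMA2: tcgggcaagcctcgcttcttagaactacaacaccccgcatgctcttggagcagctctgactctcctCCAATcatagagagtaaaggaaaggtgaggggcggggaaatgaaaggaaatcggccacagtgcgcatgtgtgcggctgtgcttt
PSMC1: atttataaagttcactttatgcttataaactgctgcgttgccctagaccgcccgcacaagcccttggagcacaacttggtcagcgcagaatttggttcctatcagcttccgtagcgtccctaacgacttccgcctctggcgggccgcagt
The CCAAT box, which NF-Y binds, was present in the windows of *PSMA5* and *PSMA2* and absent from those shown for *PSMA4* and *PSMC1*, but before another start of *PSMA4* there was a match further upstream.

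Over 250 bases before the start, on both strands, 39 of the 45 members had a RefSeq window, and 17 of these (43.6%) held CCAAT, against 37.0% of all 27305 genes with a window. The letters TGACNNNGC, the core of the antioxidant response element that NFE2L1 and its relatives bind, were found in 12 members (30.8%), against 13.2% of all genes, and CCGGAAG, a core of ETS factor sites, in 10 (25.6%), against 10.2%. TGACNNNGC was present in 1 of 6 alpha subunits with a window, *PSMA4*, where it lay before another of its starts than the one shown, and in 3 of the 4 activators. The 27305 genes include genes outside the 13548 tested with the inhibitors, and they were not matched to the members in expression or base content. A match is a string of letters, and binding was not measured.

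*PSMA5* encodes an alpha subunit of the core and lies on chromosome 1 from 109941664 to 109969070 (GRCh37, minus strand). It had 191, 210 and 306 CPM in collagen replicates 1, 2 and 4 and 169.9 in collagen replicate 3. The DDR1i libraries had 171, 160.0, 157 and 163 CPM, the RUNXi libraries 151, 167, 153 and 154, and the control libraries 159, 168, 147 and 169. All inhibitor libraries were below the 3 tested collagen libraries and overlapped the control, and collagen replicate 4 was far above the rest. Its log2 fold change against collagen was -0.53 for DDR1i (standard error 0.13, adjusted p = 0.0292), a level 30.8% lower, and -0.60 with RUNXi (standard error 0.13, adjusted p = 0.0150), a level 33.8% lower. Without collagen replicate 4 these were -0.30 (adjusted p = 0.232) and -0.36 (adjusted p = 0.125), and with collagen replicate 3 included -0.44 (adjusted p = 0.454) and -0.50 (adjusted p = 0.154). Over the 22 alternatives, adjusted p ranged from 0.00366 to 0.850 with DDR1i and from 0.000513 to 0.433 with RUNXi.

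*PSMA4*, also an alpha subunit, lies on chromosome 15 from 78832747 to 78844759 (GRCh37, plus strand). Its level was 224, 211 and 275 CPM in collagen replicates 1, 2 and 4 and 148 in replicate 3. In the DDR1i libraries it was 186, 177, 136 and 163 CPM, in the RUNXi libraries 178, 175, 152 and 172, and in the control libraries 179.9, 183, 136 and 174. The tested collagen libraries stood above all others, while collagen replicate 3 was near the lowest library of each other group. It differed from collagen by -0.52 on the log2 scale with DDR1i (standard error 0.13, adjusted p = 0.0277) and by -0.48 with RUNXi (standard error 0.13, adjusted p = 0.0318). Leaving out collagen replicate 4 gave -0.40 (adjusted p = 0.139) and -0.36 (adjusted p = 0.166), and including collagen replicate 3 gave adjusted p = 0.495 and 0.337. Adjusted p ranged from 0.00269 to 0.901 with DDR1i and from 0.00571 to 0.775 with RUNXi over 22 alternatives. Neither gene was called with DDR1i without DDR1i replicate 3 (adjusted p = 0.104 for *PSMA5* and 0.122 for *PSMA4*) or replicate 4 (0.0837 and 0.0845), and without DDR1i replicate 2 *PSMA5* had an adjusted p of 0.0647. With RUNXi the call of *PSMA4* was lost without any 1 of RUNXi replicates 1 to 4 (adjusted p = 0.0510 to 0.0933).

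*PSMA2* is another alpha subunit and lies on chromosome 7 from 42956427 to 42971784 (GRCh37, minus strand). Collagen replicates 1, 2 and 4 had 329.8, 328 and 394 CPM and collagen replicate 3 had 263. RUNXi libraries had 265, 277, 248 and 253 CPM, DDR1i libraries 296, 269, 242 and 269, and control libraries 248, 298, 219.5 and 277. Both inhibitor groups lay below the tested collagen libraries without overlap. With RUNXi the log2 fold change was -0.43 (standard error 0.11, adjusted p = 0.0320), and with DDR1i it was -0.38 (standard error 0.11, adjusted p = 0.0613), which did not pass. The difference between the inhibitors themselves was 0.04 (standard error 0.10, adjusted p = 0.999). Under RUNXi the call was lost without collagen replicate 4 (adjusted p = 0.150), with collagen replicate 3 included (0.269), with the length trend removed (0.234) and without any 1 of RUNXi replicates 1 to 4 (0.0560 to 0.0844), and over 22 alternatives adjusted p ranged from 0.00287 to 0.614.

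*PSMC1* encodes one of the ATPases of the base of the cap and lies on chromosome 14 from 90722871 to 90741773 (GRCh37, plus strand). In collagen replicates 1, 2 and 4 it had 82.0, 79.6 and 91.6 CPM and in collagen replicate 3 70.4. RUNXi gave 57.7, 63.4, 49.6 and 66.7 CPM, DDR1i 79.4, 77.0, 65.2 and 75.0, and the control 71.4, 60.4, 75.4 and 79.4. RUNXi libraries lay below all 4 collagen libraries, replicate 3 among them, and, save for RUNXi replicate 4 against DDR1i replicate 3, below the DDR1i libraries, whereas the DDR1i libraries were within or near the range of the control. The log2 fold change was -0.51 with RUNXi (standard error 0.13, adjusted p = 0.0342) and -0.19 with DDR1i (standard error 0.13, adjusted p = 0.515). DDR1i exceeded RUNXi by 0.32 in log2 fold change (standard error 0.12, unadjusted p = 0.0171 and adjusted p = 0.585 from the same edgeR fit), which did not pass. The call with RUNXi was lost without collagen replicate 4 (adjusted p = 0.144), with collagen replicate 3 included (0.168), with scaling by library totals alone (0.0598) and without RUNXi replicate 1, 2 or 3 (0.0584 to 0.0994), and adjusted p ranged from 0.00475 to 0.369 over 22 alternatives.

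**Figure D3:**
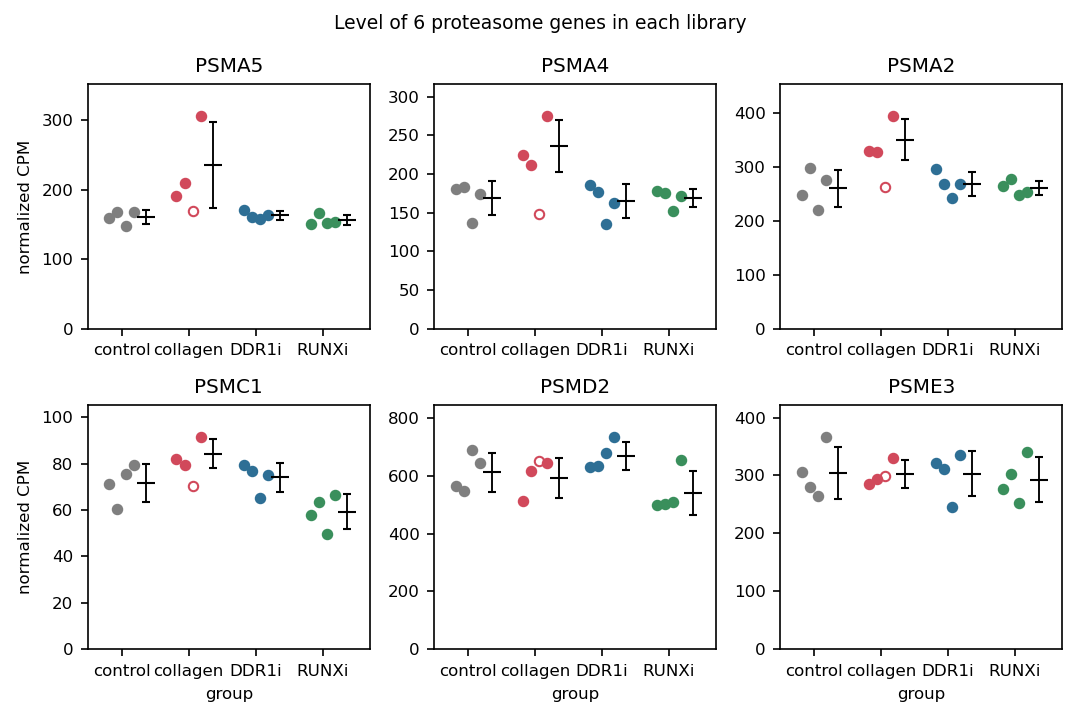
Normalized CPM (vertical, from 0) of 6 proteasome genes in each library by group; points are libraries, the open point is collagen replicate 3, and black bars are the mean ± SD without it (n = 3 for collagen and 4 for the others). PSMA5, PSMA4 and PSMA2 are highest in the 3 tested collagen libraries, PSMC1 is lowest with RUNXi, and the groups overlap for PSMD2 and PSME3.

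Across the core, all 16 genes had a negative fold change with each inhibitor, against 49.7% and 49.5% of all tested genes. These genes varied together between libraries and were compared with the same 3 collagen libraries, so that they are not 16 separate results. Their median with DDR1i was -0.302. It was -0.221 without collagen replicate 4 and -0.132 with collagen replicate 3 in its place. Medians over the 7 alpha subunits were -0.42 with DDR1i and -0.40 with RUNXi, and over the 7 constitutive beta subunits -0.29 and -0.38, against 0.00 and 0.01 over all tested genes. With DDR1i, 7 of 7 alpha and 4 of 7 beta subunits were lower at an unadjusted p under 0.05, and with RUNXi 7 of 7 and 6 of 7. Lower at this p were 8.14% of all tested genes with DDR1i and 10.2% with RUNXi. The catalytic subunits are PSMB5, PSMB6 and PSMB7, with chymotrypsin-like, caspase-like and trypsin-like activity. *PSMB5* had a log2 fold change of -0.24 with DDR1i (standard error 0.13, adjusted p = 0.352) and -0.38 with RUNXi (standard error 0.13, adjusted p = 0.0978). For *PSMB6* the values were -0.29 (adjusted p = 0.258) and -0.27 (adjusted p = 0.241), and for *PSMB7* -0.29 (adjusted p = 0.229) and -0.42 (adjusted p = 0.0639). None of the catalytic subunits passed. *PSMB1* had -0.20 with DDR1i and -0.40 with RUNXi (adjusted p = 0.427 and 0.0616).

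The inducible subunits PSMB8, PSMB9 and PSMB10 replace the catalytic ones in immunoproteasomes, which interferon-γ induces. *PSMB8* had 42.8 ± 3.17 CPM with collagen (SD, n = 3), 37.3 ± 5.62 with DDR1i, 35.4 ± 6.36 with RUNXi and 29.4 ± 5.50 in the control (SD, n = 4 each), and the groups with collagen overlapped. Its level against the control was 0.54 higher on the log2 scale with collagen (unadjusted p = 0.0138, adjusted p = 0.245 from the edgeR fit), so that it did not pass. As a share of its constitutive counterpart *PSMB5* it ranged from 10.2 to 14.6% in the control, 14.2 to 18.4% with collagen, 15.8 to 17.6% with DDR1i and 13.1 to 23.7% with RUNXi, and all libraries carried far more of the constitutive subunit. *PSMB10* ranged from 20.5 to 38.5% of *PSMB7* over the tested libraries. *PSMB9*, below the count minimum, was at 0 to 4.37 CPM and at most 2.59% of *PSMB6*, and at these counts no difference between groups was detectable (log2 fold change with DDR1i 1.05, standard error 0.70, adjusted p = 0.471 from the edgeR fit).

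In the cap, the 6 ATPases had a median log2 fold change of -0.17 with DDR1i and -0.36 with RUNXi. At an unadjusted p under 0.05 there were 0 ATPases lower with DDR1i and 6 of 6 with RUNXi. Of all tested genes 8.14% and 10.2% were lower at this p. Between the inhibitors themselves no ATPase passed (smallest adjusted p = 0.585 in the edgeR test). The 11 non-ATPase subunits, which hold the ubiquitin receptors and the deubiquitinase PSMD14, had medians of -0.17 and -0.25. Over all 20 cap genes the medians were -0.169 with DDR1i and -0.292 with RUNXi, and without collagen replicate 4 they were -0.047 and -0.152. *PSMD7*, the partner of PSMD14 in the lid, had the smallest 4-group p of the 11 non-ATPase subunits. It had -0.40 with DDR1i (standard error 0.12, adjusted p = 0.0702) and -0.33 with RUNXi (standard error 0.12, adjusted p = 0.103), and did not pass. *PSMD2*, a scaffold of the base with the highest CPM of all members, was chosen after its values were seen. It had 514, 618 and 646 CPM in collagen replicates 1, 2 and 4, 631 to 736 with DDR1i, 499 to 657 with RUNXi and 548 to 689.8 in the control, and its groups overlapped. Of the base chaperones *PSMD9* had -0.27 with DDR1i and -0.41 with RUNXi (adjusted p = 0.323 and 0.0937).

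Between the inhibitors no member passed, against 0.568% of the 13548 genes tested, and DESeq2 called none either (0.905% of all genes). At an unadjusted p under 0.05, 3 members were higher with DDR1i than with RUNXi and none lower, against 3.2% of all tested genes higher. These were *PSMC1*, the ATPase *PSMC3* (0.25, standard error 0.12, adjusted p = 0.768) and *PSMD2* (0.31, standard error 0.11, adjusted p = 0.499). The median over the members was 0.05, and 0.20 over the 6 ATPases, all of which were on the side of DDR1i. In the test of any difference among the 4 groups, 2 members passed, *PSMA5* (adjusted p = 0.0183) and *PSMA4* (adjusted p = 0.0474), against 2.07% of the 13731 genes tested. At an unadjusted p under 0.05 there were 16 members, against 15.7% of all tested genes, and DESeq2 called 8 members and 10.1% of all genes.

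**Figure D4:**
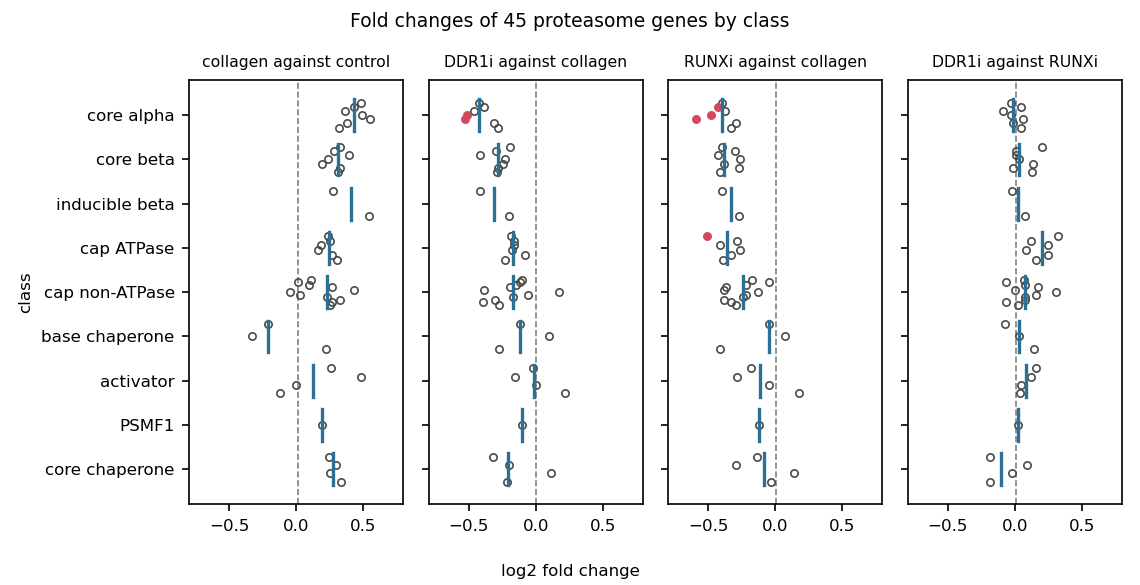
Log2 fold change (horizontal) of the 45 proteasome genes by class (vertical) in 4 comparisons; points are genes, filled red where the adjusted p was under 0.05, blue bars are class medians and the dashed line is the median of all tested genes. The alpha and beta rows lie right of the line for collagen against control and left of it with each inhibitor against collagen, and the activator row straddles it.

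The activators open the gate of the core without using ubiquitin. *PSME1* and *PSME2* together form the interferon-inducible 11S ring, *PSME3* the nuclear 11S ring, and *PSME4* encodes PA200. None passed with either inhibitor, and their median was -0.01 with DDR1i and -0.11 with RUNXi. Without collagen replicate 4 these were 0.066 and -0.032. *PSME3* had values of 0.00 and -0.05 (standard error 0.13 and 0.12, adjusted p = 0.996 and 0.881), *PSME4* 0.22 and 0.18 (adjusted p = 0.414 and 0.475), and *PSME1* -0.03 and -0.18 (adjusted p = 0.962 and 0.506). *PSME2* had -0.16 and -0.28 with the inhibitors (adjusted p = 0.620 and 0.244). It was at 85.8, 93.4 and 102 CPM in collagen replicates 1, 2 and 4 and at 84.6 in replicate 3, against 62.1 to 72.3 CPM in the control. All 4 collagen libraries were therefore above the control, replicate 3 included, but the log2 fold change of 0.48 did not pass (adjusted p = 0.170, and 6 members including *PSME2* were called by DESeq2).

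*PSMF1*, which encodes the inhibitor PI31, had -0.10 and -0.12 with the inhibitors (adjusted p = 0.772 and 0.663). Among the core chaperones *PSMG1* had -0.32 with DDR1i and -0.14 with RUNXi (adjusted p = 0.267 and 0.668), *PSMG2* -0.20 and -0.29 (adjusted p = 0.510 and 0.236), *PSMG3* 0.11 and 0.14 (adjusted p = 0.799 and 0.702) and *PSMG4* -0.22 and -0.03 (adjusted p = 0.644 and 0.954). The standard errors were 0.14 to 0.20, so that differences of the size seen in the alpha subunits could have been missed for all 4 of these genes. The median of the 4 chaperones was -0.085 with RUNXi, and 0.076 without collagen replicate 4. Against the control it was 0.28 with collagen, and 0.135 without collagen replicate 4.

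The ratio of alpha subunits to cap subunits does not depend on how libraries are scaled. The summed CPM of the 7 alpha subunits was 0.69, 0.65 and 0.71 times that of the 11 non-ATPase cap subunits in collagen replicates 1, 2 and 4, and 0.57 in collagen replicate 3. It ranged from 0.49 to 0.61 in the control, 0.53 to 0.59 with DDR1i and 0.57 to 0.64 with RUNXi, so that the 3 tested collagen libraries lay above all others without overlap. Against the 6 ATPases the alpha sum was 1.71, 1.66 and 1.61 in collagen replicates 1, 2 and 4, 1.33 to 1.47 with DDR1i, 1.25 to 1.59 in the control and 1.45 to 1.69 with RUNXi, so that collagen and RUNXi overlapped. Alpha subunits also had the shorter transcripts, with a median of 1195 bases against 1631 for the non-ATPases, and the part of length in this ratio was not tested. Relative to the control, the mean of the tested DDR1i libraries lay within the range of the 4 control libraries for 37 of 45 members, that of RUNXi for 34 and that of collagen for 11. Over all genes of the 4-group test these shares were 78.5%, 75% and 63.2%, against 82.2%, 75.6% and 24.4% of the members. Taken singly, collagen replicates 1 and 2 each lay within that range for 25 members (55.6%), against 60.1% and 64.3% of all genes. Collagen replicate 4 did so for 6 members (13.3%, against 50.4%) and collagen replicate 3 for 37 (82.2%, against 76.4%).

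Members varied together between libraries. After the group means were taken out, the median Pearson correlation of pairs of members over the 16 libraries was 0.47, against 0.02 over all tested genes. Members share the depth, scaling and length shift of each library. Collagen replicates 3 and 4 were included, with core means of -0.03 and 0.60. Of the 45 members 35 had transcripts under the median length of the tested genes, whereas 0.02 covers genes of all lengths. The part of length in this correlation was not tested. The median correlation was 0.76 among the alpha subunits, 0.64 among the constitutive beta subunits, 0.62 among the ATPases and 0.41 among the non-ATPases, but 0.00 among the 4 activators. *PSMA1* and *PSMD13* correlated most closely with the other members (median 0.67 each), while *PSMD2*, *PSME4*, *PSMG4*, *PSMD10* and *PSMD5* did so least (median -0.01 to 0.06).

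Genes that act with the proteasome were counted as well. Of 15 associated factors (the ubiquitin receptor ADRM1, the deubiquitinases UCHL5 and USP14, the assembly factor POMP and others) none passed in any of the comparisons. Lower at an unadjusted p under 0.05 were 2 of the 15 with DDR1i and 3 with RUNXi, and DESeq2 called 1 and 2. The shares over all tested genes were 8.14% and 10.2% lower at this p, and 10.2% and 11.1% called by DESeq2. The medians were -0.11 with DDR1i and -0.14 with RUNXi. *POMP*, which matures the core, had -0.55 with DDR1i (standard error 0.16, adjusted p = 0.0753) and -0.50 with RUNXi (standard error 0.16, adjusted p = 0.0846), and did not pass. Its level was 230, 229 and 418 CPM in collagen replicates 1, 2 and 4 and 154 in replicate 3. The DDR1i libraries had 181 to 228 CPM and the RUNXi libraries 184 to 233, so that collagen replicate 4 was far above the rest. Of 14 genes for ubiquitin, its activating enzyme and its shuttles none passed either, with 3 lower at an unadjusted p under 0.05 with DDR1i and 4 with RUNXi, and DESeq2 called 0 and 2, beside the same shares over all genes.

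The last list held 13 genes that regulate the subunits, such as NFE2L1, its activating enzymes DDI2 and NGLY1, the small MAF partners and the NF-Y subunits. Only *MAFK*, a small MAF protein, passed, and it rose with RUNXi, against 2.59% of all tested genes higher. With RUNXi DESeq2 called *MAFK* and *NFE2L2*, beside the share of all genes given above. *NFE2L2* was lower with RUNXi, with a log2 fold change of -0.39 (adjusted p = 0.0752 in the edgeR test). *MAFK* had 27.9, 28.4 and 26.5 CPM in collagen replicates 1, 2 and 4 and 37.1 in replicate 3, against 40.2, 35.2, 42.8 and 55.1 with RUNXi. Collagen replicate 3 lay within the range of the RUNXi libraries and the other collagen libraries below it. The log2 fold change was 0.65 (standard error 0.18, adjusted p = 0.0452), and the call was lost with collagen replicate 3 included (adjusted p = 0.253), with the length trend removed (0.0870), with all groups in a single fit (0.0751), with non-robust fitting (0.0533) and without collagen replicate 1, 2 or 4 (0.0708, 0.0790 and 0.144), DDR1i replicate 3 (0.0542) or RUNXi replicate 1, 3 or 4 (0.0584, 0.0852 and 0.146). Over all alternatives its adjusted p ranged from 0.0149 to 0.477. *NFE2L1* itself had 0.23 with DDR1i and 0.14 with RUNXi (adjusted p = 0.332 and 0.571). For collagen against control it had -0.37 (adjusted p = 0.304 in the edgeR test), which did not pass. At an unadjusted p under 0.05, 2 of the 13 regulators, *NFE2L1* among them, were lower with collagen and 0 higher. Of all tested genes 6.98% were lower. With DDR1i 2 regulators were higher and 1 lower at this p (all tested genes 9.88% and 8.14%). With RUNXi 2 were higher and 2 lower (10.8% and 10.2%).

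Some counts are uncertain. Strand was not stated for the counting, and 5 antisense genes with counts overlap members or lie beside them. *PSMA3-AS1* had 157 to 723 counts per library, 12.5% of those of *PSMA3*, *PSMD5-AS1* 8.76% of those of *PSMD5*, and the other 3 up to 2.08% of those of their partners. Several subunits also have processed pseudogenes in the genome, with which reads may be shared.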

How the data were processed

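Expression was measured by RNA-seq in 16 MCF10A libraries, which were assigned to 4 groups from their titles. Reads were aligned to GRCh37/hg19 with STAR (the submitters' processing notes and the study's methods), and the authors deposited raw counts per gene for each library. The counting tool, the annotation and the use of strand are not given in the sources used here. Doses and times came from the labels and the study's methods.

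These counts were scaled by TMM, filtered with filterByExpr and tested with the robust quasi-likelihood F test of edgeR 4.0.16 (R 4.3.3). P-values were adjusted by Benjamini-Hochberg over all tested genes, with a threshold of 0.05. The inhibitors were fitted on 11 libraries (13548 genes), collagen against control on 7 (13092 genes) and the 4 groups on 15 (13731 genes). Collagen replicate 3 was left out of all 3 fits, as in the study. Log2 CPM used a prior count of 2. DESeq2 1.42.0 was an alternative test. In alternatives with the length trend removed, a spline with 4 degrees of freedom was fitted to each library. Of 26473 gene names 21959 were matched to GENCODE lifted to GRCh37 for positions and the length of 1 transcript per gene. Promoter windows came from RefSeq. Figures were drawn with Python 3.11.15 and matplotlib 3.10.9.

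The genes were taken by name, and those named with values were the called members, the member of each class with the smallest 4-group p, the catalytic and inducible subunits, the activators, *PSMF1*, the PSMG genes and members under the minimum. *PSMD2*, *PSMC3*, *POMP* and *NFE2L1* were added after their values were seen. The members and lists were chosen with earlier results of these data known. The test was tried on simulated data.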

Additional observations from a re-analysis of the deposited data

Results flagged for a closer look

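A library was marked where its gap to the nearest library of its group of 4, divided by the range of the group, was above the 95% critical value of Dixon's test. This was applied to 108 groups of values, of which 9 passed, where chance alone passes about 1 in 20 groups (5.4 here).

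Collagen replicate 1 had fewer total counts than the rest of its group, 17570707 against 26642600 to 27695778 (gap 0.896 of the range). *PSMF1* was higher in collagen replicate 4, with 281 CPM against 180.2 to 196 (0.845), and *PSMG4* lower in collagen replicate 2, with 17.0 CPM against 23.6 to 24.9 (0.834). In the control group *PSMB7* was lower in replicate 1, with 95.2 CPM against 106 to 108 (0.858), and *PSMD9* higher in replicate 3, with 76.3 CPM against 62.8 to 64.6 (0.865). The summed level of the 4 PSMG chaperones was lower in control replicate 3, with 167 CPM against 210.5 to 217 (0.867). It was higher in DDR1i replicate 1, with 257 CPM against 202 to 204 (0.964). *PSME4* was higher in DDR1i replicate 2, with 157 CPM against 123 to 124 (0.975), and *PSMG4* higher in RUNXi replicate 3, with 26.1 CPM against 19.3 to 20.1 (0.893).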

How the results depend on the processing

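No called value changed sign, but some class medians, which were not tested, did. The median of the PSMG chaperones with RUNXi (-0.085) was 0.094 with the length trend removed, 0.08 with collagen replicate 3 in place of replicate 4 and 0.076 without collagen replicate 4. The activator median with DDR1i (-0.014) was between 0.017 and 0.094 under 5 alternatives. Against the control the length trend removed gave -0.003 for the cap (0.225) and -0.006 for the chaperones (0.276), and collagen replicate 3 in place of replicate 4 gave -0.003 for the cap. The core median of DDR1i against RUNXi (0.021) was -0.044 to -0.006 under 3 alternatives. Called members with DDR1i (2) were 5 without a filter on low counts, 9 with DESeq2 and 0 with collagen replicate 3 included or in place of replicate 4 (chosen after seeing the data), while all genes called were 2.47% at first and 4.22, 10.2, 0.0674 and 0.0809% in this order. With RUNXi (4) they were 11, 15, 0 and 0 in the same order (all genes 4.05%, then 5.84, 11.1, 0.449 and 0.405%), against the control (0) 2, 6, 0 and 0 (all genes 0.0%, then 1.57, 5.81, 0.0 and 0.0%), and over 4 groups (2) 3, 8, 0 and 0 (all genes 2.07%, then 3.09, 10.1, 0.599 and 0.828%). Against the control, all groups in 1 fit gave 4, and over 4 groups library totals alone and non-robust fitting gave 1 each. Leaving out 1 library gave 0 to 6 with DDR1i and 0 to 8 with RUNXi. It gave 0 to 3 over 4 groups and 0 for the rest. With DDR1i there were 0 without collagen replicate 4 or DDR1i replicate 3 or 4 (all genes 0.62, 0.447 and 0.712%). There were 6 without DDR1i replicate 1 (all genes 4.92%). With RUNXi there were 0 without collagen replicate 4 and 8 without collagen replicate 1. Median log2 fold changes with collagen replicate 3 in place of replicate 4 were -0.045 with DDR1i, -0.134 with RUNXi and 0.093 against the control, and with the length trend removed -0.167 with RUNXi and 0.006 against the control. The cause of these changes was not tested. Medians over all 45 members for DDR1i against RUNXi stayed between -0.00 and 0.09. Same-numbered libraries had a median correlation of 0.0693 (7 of 24 pairs over 0.1), against -0.0187 for other-numbered libraries (4 of 72 pairs). Of the 16 libraries, 12 correlated best with a library of their own number. The main fits did not take the numbers as pairs, and what same-numbered libraries have in common was not tested. With the replicate block, called members were 2 with DDR1i, where 3.96% of all genes were called, and 5 with RUNXi. They were 0 between inhibitors, 0 against the control and 2 over 4 groups. Where no share of all genes called stands beside a count in this section, that count cannot be compared with the rest of the genes. The smallest change planted in simulated data was larger than any seen in the 45 members, so that detection at the sizes seen here is not known.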
